A study of Mus musculus with 22 samples.

Results

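Immunoglobulin genes were followed across the ileum of mice with a normal or a poorly dimerising glucocorticoid receptor, with and without zinc in the drinking water. A gene entered the group when its GENCODE type was an immunoglobulin constant (C), variable (V), diversity (D), joining (J) or LV gene, pseudogenes left out, and its raw counts summed to at least 50 over all 22 libraries. Members were thus selected on their gene type and summed counts, and no comparison entered the choice, although it was made with earlier results of these data known. Of 54838 genes in the count table, 268 had such a type and 200 reached the minimum. The 200 members comprised 96 heavy chain genes (8 C, 87 V and 1 J), 98 kappa light chain genes (1 C, 93 V and 4 J) and 6 lambda light chain genes (3 C and 3 V). Of the 68 genes under the minimum, 27 had no read at all. The summed counts just outside the minimum were 36 (Ighj3), 39 (Iglj1), 47 (Ighv10-1) and 49 (Igkv3-3), and those just inside were 54 (Ighv1-62-2 and Ighv1-76), 58 (Igkv8-16) and 59 (Igkv4-71).

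All mice were females of the FVB/N strain, 8 to 14 weeks old. GRWT mice carried the normal glucocorticoid receptor gene Nr3c1, and GRDim mice (GRDIM in the labels) carried a point mutant of it in every cell, whose protein forms dimers less efficiently. Both genotypes drank normal water or water with 25 mM ZnSO4 for 7 days, which gave 5 GRWT water, 5 GRWT zinc, 6 GRDim water and 6 GRDim zinc libraries, labelled either as ileum tissue or as IEC, a lysate of intestinal epithelial cells scraped from the distal ileum. Single-end reads were counted per gene, and library totals ran from 13149951 to 15620744 counts. All libraries but 2 carry a replicate number, and no source used here says that each came from a separate mouse, so p-values measure only the spread between libraries.

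An antibody is built from a pair of heavy and a pair of light chains. Each chain joins a V segment, which helps to bind antigen, to a J segment and a constant region, and the heavy constant gene in use sets the class: Igha gives IgA, Ighm IgM, Ighd IgD and the Ighg genes IgG. In the gut, plasma cells of the lamina propria secrete IgA as dimers held by the J chain (Jchain), and epithelial cells carry these across to the lumen with the polymeric immunoglobulin receptor (Pigr). Because plasma cells lie outside the epithelial sheet, the amount of lamina propria in a library may bear on the levels of immunoglobulin RNA below, which was not tested.

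The libraries were divided by Myh11, the smooth muscle myosin heavy chain. It stood at 298 to 463 CPM (counts scaled to a common library total) in 12 libraries, 3 of each condition, and at 3.22 to 20.5 CPM in the other 10. Tissue labels and this division did not match, as the 12 Myh11-high libraries held 7 labelled IEC and 5 labelled ileum, and the Myh11-low ones 3 labelled IEC and 7 labelled ileum. Each library is given under its label, and whether labels had been exchanged was not tested. Among the 12, all GRDim water libraries were labelled IEC and all GRDim zinc libraries ileum, so that zinc and the tissue label cannot be told apart in GRDim mice. The library labelled GRWT zinc ileum replicate 1 stood apart. The summed level of 16 B cell markers was 445 CPM in it and 23.1 to 64.7 CPM in the other 11, with Ms4a1 at 61.5 CPM against at most 2.98 CPM and Cr2 at 36.0 against at most 1.52. Results that rest on this library are given with and without it. The Nr3c1 level is no check of the genotype, since a point mutation need not change the number of reads from the gene.

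A few germline sequences show how alike the V segments are that the reads had to be assigned to. Coordinates are those of the GRCm38 (mm10) build, and sequences are GENCODE vM21 transcripts read 5′ to 3′. mm10 is a C57BL/6J assembly, so the alleles of the FVB/N mice may differ from them. Ighv1-54, the heavy V gene with the largest gain in share in GRDim mice, lies at chr12:115193675-115193968 on the minus strand. Its nearest relative Ighv1-63 lies at chr12:115495625-115495918 on the same strand. The V regions of both are 294 bases long, and the capitals mark the 21 bases at which they differ, an identity of 92.9%.
Ighv1-54: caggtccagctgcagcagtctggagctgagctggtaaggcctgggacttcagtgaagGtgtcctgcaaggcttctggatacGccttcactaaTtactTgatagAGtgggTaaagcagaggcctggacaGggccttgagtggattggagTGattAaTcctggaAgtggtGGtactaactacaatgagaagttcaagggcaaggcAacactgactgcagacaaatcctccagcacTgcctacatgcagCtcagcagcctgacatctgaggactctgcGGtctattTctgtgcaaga
Ighv1-63: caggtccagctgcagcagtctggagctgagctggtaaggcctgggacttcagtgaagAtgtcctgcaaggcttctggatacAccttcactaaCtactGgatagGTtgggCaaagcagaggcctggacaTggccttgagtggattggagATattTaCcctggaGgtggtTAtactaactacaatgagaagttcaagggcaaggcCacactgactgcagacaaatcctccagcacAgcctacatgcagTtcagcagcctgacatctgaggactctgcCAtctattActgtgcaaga

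The last 75 bases of 5 members of the Ighv1 family are shown because the first 3 named here had higher levels in GRDim mice and the other two had lower shares. Capitals mark the codon of the second conserved cysteine, just before the part of the chain that the D and J segments complete. The segments lie on the minus strand at chr12:115193675-115193749 (Ighv1-54), chr12:115912344-115912418 (Ighv1-80), chr12:114615850-114615924 (Ighv1-12), chr12:115623161-115623235 (Ighv1-69) and chr12:115802648-115802722 (Ighv1-74).
Ighv1-54: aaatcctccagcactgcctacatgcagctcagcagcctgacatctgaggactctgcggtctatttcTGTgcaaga
Ighv1-80: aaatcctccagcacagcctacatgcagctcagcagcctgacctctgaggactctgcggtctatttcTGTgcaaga
Ighv1-12: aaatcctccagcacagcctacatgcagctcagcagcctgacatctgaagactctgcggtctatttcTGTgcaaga
Ighv1-69: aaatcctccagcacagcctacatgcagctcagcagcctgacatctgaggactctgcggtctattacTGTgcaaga
Ighv1-74: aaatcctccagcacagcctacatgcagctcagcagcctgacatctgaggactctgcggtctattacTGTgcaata

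The same 75-base ends are shown for 4 kappa V genes on which the results below turn. They lie at chr6:68271193-68271267 on the plus strand (Igkv1-110), chr6:67791437-67791511 on the plus strand (Igkv14-130), chr6:67954228-67954302 on the minus strand (Igkv9-123) and chr6:69607275-69607349 on the minus strand (Igkv4-55).
Igkv1-110: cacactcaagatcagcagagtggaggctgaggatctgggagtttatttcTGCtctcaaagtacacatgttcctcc
Igkv14-130: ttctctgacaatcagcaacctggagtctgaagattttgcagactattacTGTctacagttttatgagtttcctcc
Igkv9-123: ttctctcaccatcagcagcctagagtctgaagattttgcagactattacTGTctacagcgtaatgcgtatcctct
Igkv4-55: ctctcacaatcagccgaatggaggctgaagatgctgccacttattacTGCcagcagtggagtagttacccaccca

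The last 60 coding bases of the secreted forms of Igha (chr12:113258771-113258830, minus strand) and Ighm (chr12:113420870-113420929, minus strand) are shown because both end in a tail whose penultimate codon, in capitals, encodes the cysteine through which the J chain is bound.
Igha: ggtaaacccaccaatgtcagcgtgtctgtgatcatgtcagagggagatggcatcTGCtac
Ighm: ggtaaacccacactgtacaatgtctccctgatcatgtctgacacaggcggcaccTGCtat

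Over the 183 V members, the longest stretch of bases shared with another V gene had a median of 90 bases (16 to 351). It was 63 bases for Ighv1-54, 70 for Ighv1-12, 38 for Igkv14-130 and 52 for Igkv9-123, but 142 for Igkv1-110, 131 for Igkv10-96, 138 for Igkv4-55 and 160 for Ighv2-2. Reads that mapped to several places had been left out of the counts, so levels of V genes with long shared stretches are uncertain, and what this did to the differences between conditions was not tested.

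In the 12 Myh11-high libraries, heavy and kappa chain reads were higher in GRDim than in GRWT mice on either water. The 200 members took 1.11%, 0.873% and 0.779% of all counts in the 3 GRWT water libraries and 0.846%, 0.619% and 1.03% in the GRWT zinc libraries. They took 2.52%, 2.25% and 2.82% in GRDim water libraries and 1.79%, 1.93% and 2.54% in GRDim zinc libraries. Among these 12 libraries, the lowest GRDim library thus lay above the highest GRWT library. In the Myh11-low libraries, given further below, the genotypes overlapped on zinc. In bulk tissue, fewer cells of a type and less RNA per cell cannot be told apart, here or in any result below.

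Levels below are CPM normalised by the trimmed mean of M values (TMM) over the 12 Myh11-high libraries, listed as IEC 4, IEC 5 and ileum 1 for GRWT water and for GRWT zinc, as IEC 4, 5 and 6 for GRDim water and as ileum 1, 2 and 3 for GRDim zinc. The summed heavy chain level was 5531, 4384 and 3862 CPM in GRWT water, 4344, 3223 and 4979 in GRWT zinc, 12919, 11390.3 and 14248 in GRDim water and 9134, 10197 and 13075 in GRDim zinc. The genotypes did not overlap, and GRDim was 2.82-fold higher on water (log2 difference 1.49, SD within conditions 0.218) and 2.59-fold higher on zinc (1.38, SD 0.294). The summed kappa level was 5365, 4243 and 3933 CPM in GRWT water, 4159, 3116 and 4899 in GRWT zinc, 12231, 10947 and 13298 in GRDim water and 9176, 9495 and 11886 in GRDim zinc. It differed 2.71-fold on water (1.44, SD 0.193) and 2.54-fold on zinc (1.34, SD 0.274), again without overlap. Sums over a class chosen with its results known were given no p-value.

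Lambda reads were few and less clearly separated. Their sum was 48.2, 42.8 and 30.9 CPM in GRWT water, 34.9, 32.9 and 74.5 in GRWT zinc, 84.5, 119 and 141 in GRDim water and 73.2, 68.1 and 119 in GRDim zinc. On water the genotypes did not overlap (2.81-fold, log2 difference 1.49, SD 0.356), while on zinc the value of 74.5 CPM, from the library labelled GRWT zinc ileum replicate 1, reached into the GRDim range (1.91-fold, 0.93, SD 0.560). Without that library the log2 difference on zinc was 1.31 for lambda, 1.51 for heavy and 1.49 for kappa genes.

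**Figure D1:**
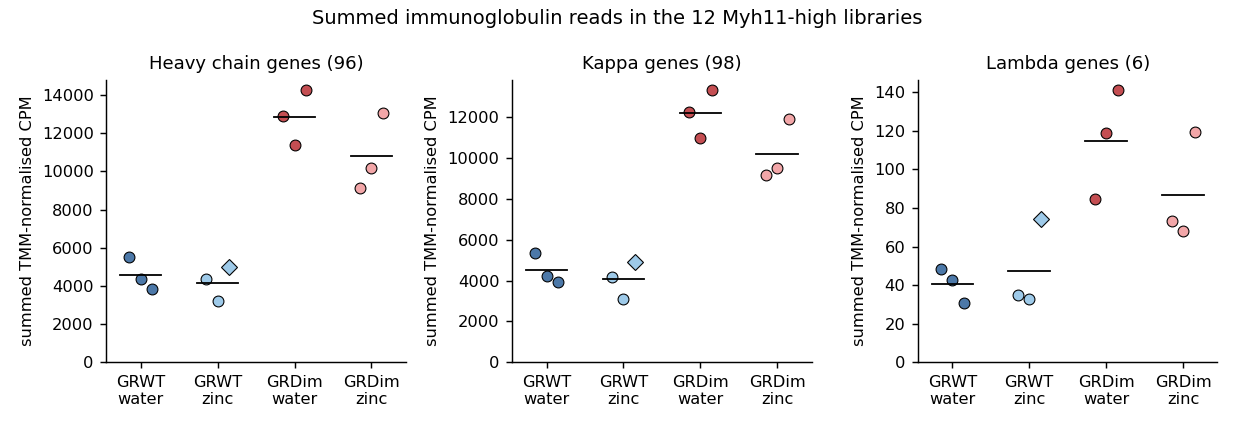
Summed level of the 96 heavy, 98 kappa and 6 lambda members (TMM-normalised CPM, linear axes from 0) in the 12 Myh11-high libraries by condition. Dots are libraries, lines are means and the diamond is the library labelled GRWT zinc ileum replicate 1. Heavy sums lie between 3223 and 5531 CPM in GRWT and between 9134 and 14248 CPM in GRDim libraries, while the lambda diamond at 74.5 CPM lies within the GRDim range.

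Gene by gene, edgeR's quasi-likelihood test with Benjamini-Hochberg adjustment over all 15947 genes tested called a gene at an adjusted p under 0.05 and a log2 fold change beyond 0.8. Of the 200 members, 187 passed the count filter and 13 did not, and the filter favours genes that are high in 1 condition. On water, 83 of these 187 were called higher in GRDim mice, against 5.02% of all genes tested, and 1 lower, against 5.47%. On zinc, 75 were called higher, against 2.43%, and 0 lower, against 1.97%. The GRDim zinc libraries were all labelled ileum and the GRWT zinc ones 2 IEC and 1 ileum, and with the tissue label as covariate 43 members were higher on zinc (1.89% of all genes) and 1 lower (2.09%). With a weaker filter that kept all 200 members, 77 were higher and 1 lower on water (4.08% and 4.43% of all genes), and 63 were higher and 0 lower on zinc (1.82% and 1.55%).

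Of the 187 tested, 176 fold changes were above 0 and 11 below on water, and 181 above and 6 below on zinc. Their median log2 fold change was 1.28 on water and 1.31 on zinc, while the median of all genes tested was -0.00 and -0.02. At an unadjusted p under 0.05, 109 members were higher and 1 lower on water (23.8% and 23.3% of all genes) and 109 higher and 2 lower on zinc (15.2% and 16.9%). DESeq2 called 100 higher and 1 lower on water (4.70% and 4.34% of genes with an adjusted p) and 103 higher and 0 lower on zinc (2.65% and 1.59%). The 2 genotype comparisons share no library, though they share the fit's estimate of spread. They had 52 calls in common, which were 62.7% of the calls on water and 69.3% of those on zinc, and their log2 fold changes correlated at 0.214 (Pearson) and 0.171 (Spearman) over the 187 genes. Genes of 1 library are no replicates of each other, and most points lie in a single cloud around the median shift. With both waters pooled, 118 members were higher (background 4.11%) and 1 was lower (4.17%).

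Counting libraries in place of testing, 112 of the 200 members were higher in every GRDim than in every GRWT library on water, against 27.6% of all genes tested, and 1 was lower in every one, against 26.5%. On zinc, 115 were higher in every GRDim library, against 16.0%, and 0 lower, against 17.9%. Over both waters together, 63 members separated all 6 GRDim from all 6 GRWT libraries upwards, against 9.56% of genes, and 0 downwards, against 8.59%. Without the library labelled GRWT zinc ileum replicate 1, the tested counts were 88 higher and 1 lower on water (5.74% and 5.58%) and 58 higher and 1 lower on zinc (3.47% and 1.75%). The higher count on zinc was 39 without GRWT zinc IEC replicate 5 (1.81% of all genes), 40 without GRDim zinc ileum replicate 3 (2.07%) and 45 without GRWT zinc IEC replicate 4 (1.95%), and that on water was 55 without GRWT water ileum replicate 1 (3.89%).

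**Figure D2:**
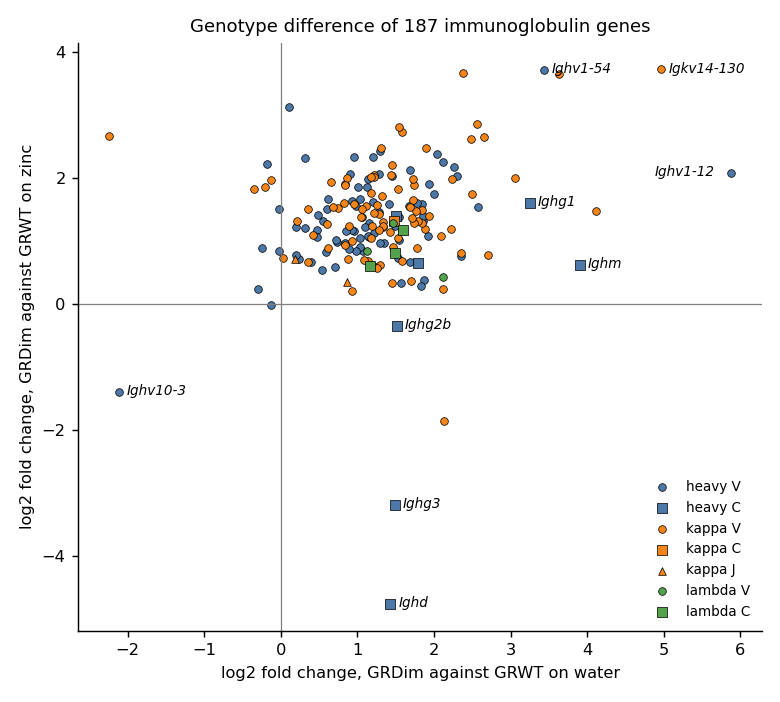
Log2 fold change of GRDim against GRWT on water (horizontal) and on zinc (vertical) for the 187 tested members; circles are V, squares C and triangles J genes, coloured by chain. Most points lie up and to the right of 0 in a cloud around 1.28 and 1.31, with Ighv1-54 high on both axes and Ighd, Ighg3 and Ighg2b below 0 on the zinc axis only.

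IgA carried most of the heavy chain signal. Igha stood at 4716, 3741 and 3337 CPM in GRWT water, 3815, 2818 and 4069.8 in GRWT zinc, 11128, 9911 and 12403 in GRDim water and 7807, 8895 and 11424 in GRDim zinc. Every GRDim library lay above every GRWT library. The log2 fold change was 1.50 ± 0.18 (SE; edgeR adjusted p = 9.55e-05) on water and 1.39 ± 0.18 (edgeR adjusted p = 0.000548) on zinc. Per kilobase of exon, the mean Igha level was 1474 CPM in GRWT water, 1337 in GRWT zinc, 4178 in GRDim water and 3514 in GRDim zinc, against 6.24, 35.1, 94.0 and 54.1 CPM per kilobase for Ighm.

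Igha took 99.2%, 99.3% and 99.3% of the heavy constant counts in GRWT water and 99.4%, 99.2% and 91.7% in GRWT zinc, the last being the library labelled ileum replicate 1. The share was 97.5%, 97.9% and 98.1% in GRDim water and 97.9%, 98.7% and 98.7% in GRDim zinc. On water it was thus 1.43 percentage points lower in GRDim mice (SD within conditions 0.196), with no overlap. On zinc it was 1.63 points higher (SD 3.11), and 0.90 points lower without the library labelled GRWT zinc ileum replicate 1 (-0.90).

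**Figure D3:**
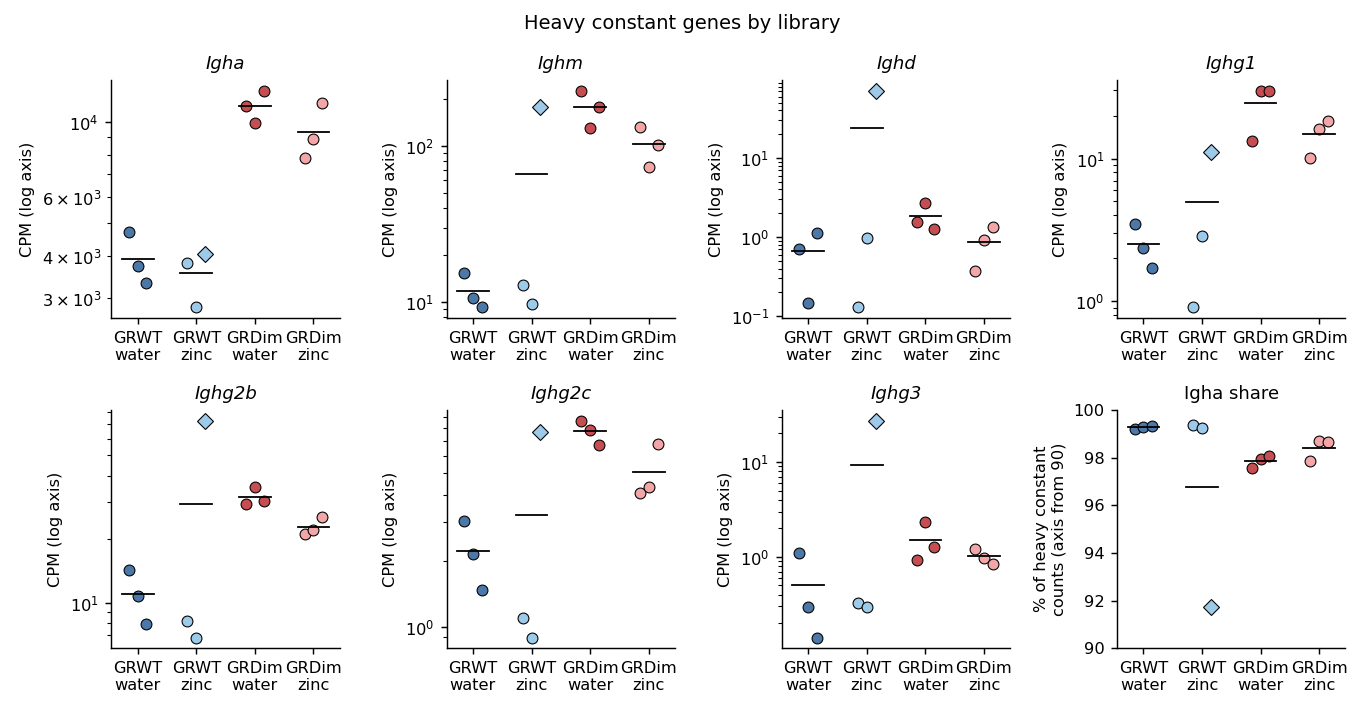
Levels of 7 heavy constant genes (TMM-normalised CPM, log axes) and the Igha share of heavy constant counts (linear axis from 90%) by condition. Dots are libraries, lines are means and the diamond is the library labelled GRWT zinc ileum replicate 1, which at 176 CPM for Ighm and 71.3 CPM for Ighd lies far above the other GRWT libraries and has the lowest Igha share, 91.7%.

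Ighm, the constant gene of IgM, stood at 15.4, 10.7 and 9.25 CPM in GRWT water and at 226, 129.7 and 176 CPM in GRDim water. The groups lay far apart, and the log2 fold change was 3.90 ± 1.08 (edgeR adjusted p = 0.0215). The adjusted p rose above 0.05 without GRDim water IEC replicate 4 or any of the 3 GRWT water libraries, at most to 0.0701. In zinc libraries Ighm stood at 12.8, 9.74 and 176 CPM in GRWT and 132, 73.0 and 101 CPM in GRDim mice, where the 176 CPM came from the library rich in B cell markers. The log2 fold change on zinc was 0.63 ± 0.92 (edgeR adjusted p = 0.694), and 3.17 (edgeR adjusted p = 0.00197) without that library. Ighm took 0.275% to 0.343% of heavy constant counts in 5 GRWT libraries, 3.96% in the sixth and 0.810% to 1.98% in GRDim libraries.

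Of the IgG genes, Ighg1 was called on water. It stood at 3.48, 2.37 and 1.69 CPM in GRWT water, 0.904, 2.85 and 11.1 in GRWT zinc, 13.2, 29.8 and 29.9 in GRDim water and 10.1, 16.2 and 18.4 in GRDim zinc. The log2 fold change was 3.26 ± 0.77 on water (edgeR adjusted p = 0.0104) and 1.60 ± 0.72 on zinc (edgeR adjusted p = 0.167, and 0.0148 with a log2 fold change of 3.03 without the library labelled GRWT zinc ileum replicate 1). The other IgG genes were not called on water, where that library still enters the estimate of spread. Ighg2b stood at 14.3, 10.7 and 7.91 CPM in GRWT water and 29.3, 35.2 and 30.3 in GRDim water (log2 fold change 1.52, edgeR adjusted p = 0.190). Ighg2c stood at 3.03, 2.15 and 1.48 CPM in GRWT water and 8.65, 7.87 and 6.70 in GRDim water (1.79, edgeR adjusted p = 0.0764). In both genes the water groups did not overlap.

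On zinc that library decided the direction for Ighg2b and Ighg3 and the call for Ighg2b and Ighg2c. Ighg2b stood at 8.14, 6.82 and 72.9 CPM in GRWT zinc and 21.1, 22.0 and 25.6 in GRDim zinc, with a log2 fold change of -0.35 (edgeR adjusted p = 0.806) with it and 1.61 (edgeR adjusted p = 0.000477) without it. Ighg2c stood at 1.10, 0.899 and 7.68 CPM against 4.06, 4.34 and 6.76, which gave 0.65 (edgeR adjusted p = 0.573) with it and 2.32 (edgeR adjusted p = 0.000186) without it. Ighg3 stood at 0.323, 0.300 and 27.1 CPM against 1.20, 0.979 and 0.846, and its log2 fold change went from -3.19 to 1.66 (edgeR adjusted p = 0.196 and 0.111). Outside that library Ighg3 did not exceed 2.31 CPM. Without it, Ighg2b, Ighg2c and Ighg3 were also called on water, at edgeR adjusted p = 4.46e-05, 3.17e-05 and 0.0316. Ighg2c was called there without GRWT zinc IEC replicate 5 as well (edgeR adjusted p = 0.0458).

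Ighd, which marks naive B cells, was low except in 1 library. It stood at 0.129, 0.974 and 71.3 CPM in GRWT zinc, where 71.3 CPM belonged to the library labelled ileum replicate 1, and between 0.148 and 2.67 CPM in the other 9 libraries. Its log2 fold change was 1.43 on water (edgeR adjusted p = 0.666) and -4.76 on zinc (edgeR adjusted p = 0.116), or 0.73 on zinc without that library (edgeR adjusted p = 0.605). Ighe, the constant gene of IgE, reached at most 0.775 CPM, against a floor of 3 counts of 0.192 to 0.224 CPM, and was not tested.

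Among light chain constant genes, Igkc led. It stood at 3374, 2741 and 2531 CPM in GRWT water, 2734, 2053 and 3241 in GRWT zinc, 8077, 7184 and 8743 in GRDim water and 5825, 6326 and 7874 in GRDim zinc, with no overlap between genotypes. Fitted, Igkc differed by a log2 fold change of 1.47 ± 0.18 on water (edgeR adjusted p = 7.36e-05) and 1.32 ± 0.18 on zinc (edgeR adjusted p = 0.000535). Igkc counts came to 71.5 to 79.6 per 100 Igha counts in GRWT and 68.9 to 74.6 in GRDim libraries, ranges that overlap.

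The lambda constant genes were lower. Iglc1 stood at 5.55, 4.74 and 3.39 CPM in GRWT water and 11.98, 13.6 and 15.8 in GRDim water (log2 fold change 1.60 ± 0.30, edgeR adjusted p = 0.00166). Iglc2 stood at 21.9, 17.6 and 14.4 CPM in GRWT water and 34.7, 54.4 and 62.3 in GRDim water (1.49 ± 0.37, edgeR adjusted p = 0.0127). Both rose on water. On zinc Iglc1 was called (1.17, edgeR adjusted p = 0.0209, lost without GRDim zinc ileum 1 or 3 or GRWT zinc IEC 4 or 5, at most 0.0797) and Iglc2 was not (0.82, edgeR adjusted p = 0.164). Iglc3 was not called on water (1.16, edgeR adjusted p = 0.126) or zinc (0.60, edgeR adjusted p = 0.492), and was called on both without the library labelled GRWT zinc ileum replicate 1 (edgeR adjusted p = 0.000405 and 0.000367). Lambda took 0.808% to 1.57% of light constant counts in GRWT and 0.671% to 1.06% in GRDim libraries, so the kappa to lambda balance overlapped between genotypes.

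V genes of both chains were called higher in both genotype comparisons. Of 84 heavy V genes tested, 39 were called higher and 1 lower on water and 38 higher on zinc, and of 87 kappa V genes 37 were higher on water and 33 on zinc, against 5.02% of all genes higher and 5.47% lower on water and 2.43% higher on zinc. By mean level over the 12 libraries, the leading heavy V genes were Ighv2-2, Ighv1-9, Ighv1-64, Ighv1-54 and Ighv8-11, with Ighv1-54 placed there by its GRDim levels. Ighv2-2 stood at 76.3, 44.0 and 34.0 CPM in GRWT water, 25.6, 18.3 and 27.3 in GRWT zinc, 89.0, 85.3 and 119 in GRDim water and 43.7, 81.6 and 96.7 in GRDim zinc. Its log2 fold change was 0.93 on water (edgeR adjusted p = 0.0802, called at 0.0488 without GRDim zinc ileum 1 and 0.0259 without GRWT water IEC 4) and 1.64 on zinc (edgeR adjusted p = 0.0224, at most 0.0739 with 1 library left out, the call being lost without GRDim zinc ileum 2 or 3 or GRWT zinc IEC 4 or 5). Ighv1-9 was called on both, at 2.00 (edgeR adjusted p = 0.00284) and 1.75 (edgeR adjusted p = 0.0146), the latter lost without GRDim zinc ileum 3 or GRWT zinc IEC 5 (at most 0.0516).

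Ighv1-54 stood out within the heavy chain. It stood at 11.9, 4.37 and 4.31 CPM in GRWT water, 4.20, 5.47 and 5.00 in GRWT zinc, 96.2, 64.0 and 65.8 in GRDim water and 80.5, 41.2 and 69.7 in GRDim zinc. The lowest GRDim library lay well above the highest GRWT library. The log2 fold change was 3.43 ± 0.42 on water (edgeR adjusted p = 0.000318) and 3.71 ± 0.44 on zinc (edgeR adjusted p = 0.000891), and leaving out any 1 library kept both calls. Ighv1-63, the relative printed above and chosen after its values were seen, stood at 1.49 to 2.89 CPM in the 6 GRWT and 5.67 to 9.43 CPM in the 6 GRDim libraries. Its log2 fold change was 1.78 ± 0.22 on water (edgeR adjusted p = 2.4e-05) and 1.60 ± 0.23 on zinc (edgeR adjusted p = 0.000251).

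Other V genes had larger but less even increases. Ighv1-12 stood at 0.516, 0.815 and 0.0706 CPM in GRWT water, 0.517, 1.65 and 1.62 in GRWT zinc, 59.1, 12.9 and 11.7 in GRDim water and 2.63, 2.73 and 10.4 in GRDim zinc. On water its log2 fold change was 5.88 ± 1.12 (edgeR adjusted p = 0.00358), from a GRWT level near the floor of 3 counts, and on zinc it was 2.07 (edgeR adjusted p = 0.210). Among GRDim libraries it was highest in water IEC replicate 4 and lowest in zinc ileum replicate 1. Igkv14-130 stood at 0.193 to 1.20 CPM in the 6 GRWT libraries, and at 4.25, 30.3 and 16.3 in GRDim water and 26.2, 7.76 and 0.634 in GRDim zinc. Its log2 fold change was 4.96 ± 1.40 on water (edgeR adjusted p = 0.0229, at most 0.0776 and lost without GRDim water IEC 5 or any GRWT water library) and 3.72 on zinc (edgeR adjusted p = 0.0879, at its lowest 0.0316 and called without GRDim zinc ileum 3).

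Among the abundant kappa V genes, Igkv10-96 stood at 228, 148 and 156 CPM in GRWT water, 139, 113 and 111 in GRWT zinc, 363, 331 and 408 in GRDim water and 305, 327 and 397 in GRDim zinc. Igkv10-96 rose by a log2 fold change of 1.05 (edgeR adjusted p = 0.00137) on water and 1.50 (edgeR adjusted p = 0.000575) on zinc. Igkv1-110 stood at 70.3, 75.5 and 50.1 CPM in GRWT water, 77.0, 61.0 and 88.5 in GRWT zinc, 468, 252 and 384 in GRDim water and 269.6, 179 and 306 in GRDim zinc. It rose by a log2 fold change of 2.50 ± 0.30 (edgeR adjusted p = 0.000303) on water and 1.74 ± 0.30 (edgeR adjusted p = 0.00496) on zinc. In neither gene did the genotypes overlap. Igkv1-117 (1.73 and 1.98, edgeR adjusted p = 0.00341 and 0.00479) was also called on both waters, Igkv12-46 (1.18 and 1.05, edgeR adjusted p = 0.00452 and 0.0173) was called on both but lost on zinc without GRDim zinc ileum 1 or 3 or GRWT zinc IEC 4 or 5 (at most 0.0601), and Igkv1-135 (0.95 and 1.59) was called on zinc only (edgeR adjusted p = 0.0584 and 0.0163, lost on zinc without GRDim zinc ileum 3 or GRWT zinc IEC 4 or 5, at most 0.0593, and gained on water without GRDim water IEC 5, GRWT water IEC 4 or GRWT zinc ileum 1, at its lowest 0.0318).

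**Figure D4:**
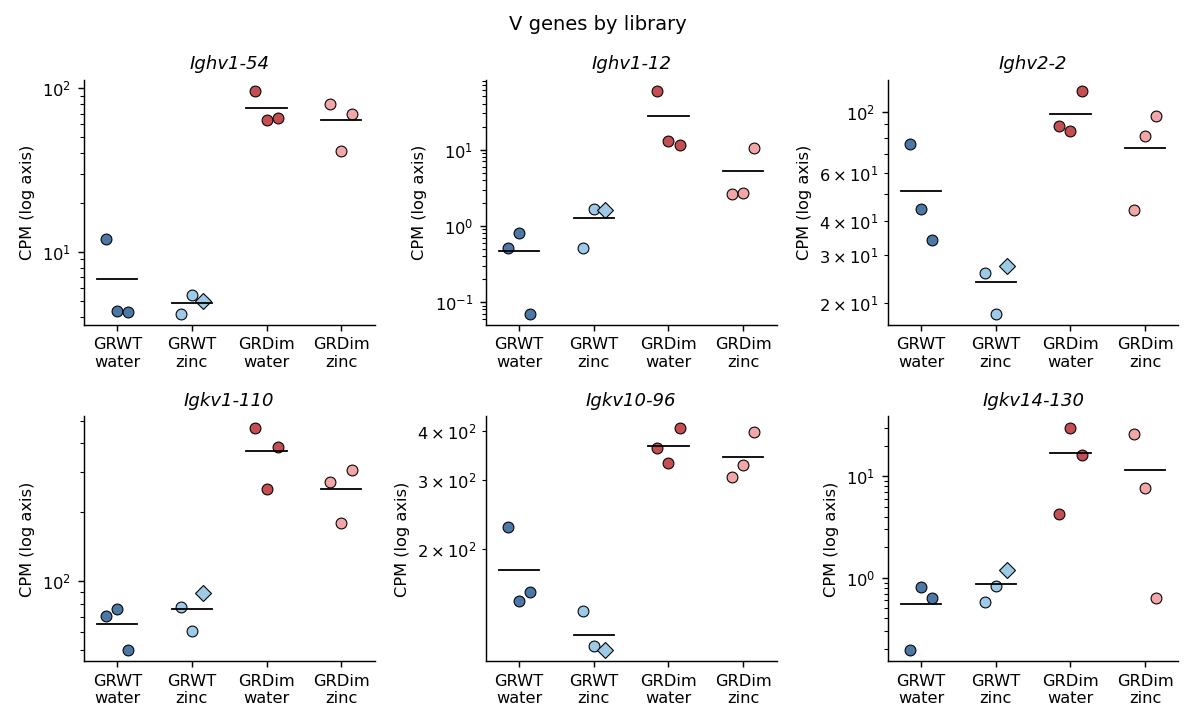
Levels of 6 V genes (TMM-normalised CPM, log axes) by condition; dots are libraries, lines are means and the diamond is the library labelled GRWT zinc ileum replicate 1. Ighv1-54, Igkv1-110 and Igkv10-96 separate the genotypes in all libraries, whereas Igkv14-130 ranges from 0.634 to 30.3 CPM among GRDim libraries and overlaps GRWT.

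Low kappa V genes made up the rest of the largest increases. Igkv9-123 stood at 0.194 to 0.775 CPM in GRWT and 2.27 to 15.3 CPM in GRDim libraries, with log2 fold changes of 3.63 ± 0.88 on water (edgeR adjusted p = 0.0109) and 3.64 ± 0.95 on zinc (edgeR adjusted p = 0.0297, lost without GRDim zinc ileum 2 or 3 or any GRWT zinc library, at most 0.104). Igkv9-129 stood at 0.258 to 0.838 CPM in GRWT and 1.20 to 7.62 CPM in GRDim libraries (2.38 and 3.66, edgeR adjusted p = 0.0203 and 0.0082, the first up to 0.0740 and lost without GRDim water IEC 4 or GRWT water IEC 5 or ileum 1). Igkv4-74 (2.73, edgeR adjusted p = 0.0498) and Igkv3-9 (2.48, edgeR adjusted p = 0.0464) were called on zinc. Igkv4-74 kept its call only without GRDim water IEC 6, and Igkv3-9 only without GRDim water IEC 5 or 6, GRDim zinc ileum 3 or GRWT water ileum 1 (otherwise at most 0.137 and 0.146). Iglv1, the leading lambda V gene, stood at 9.93, 8.81 and 5.79 CPM in GRWT water and 22.8, 21.4 and 23.8 in GRDim water, and was called on both waters (1.47 and 1.28, edgeR adjusted p = 0.000121 and 0.00135). Iglv3 (2.12 and 0.43) and Iglv2 (1.13 and 0.85) were not called on either, and were called on water without GRWT zinc ileum replicate 1 (Iglv3, edgeR adjusted p = 0.0311) and without GRDim water IEC replicate 4 (Iglv2, edgeR adjusted p = 0.0286).

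A single member was called lower, and it is named here after its values were seen. Ighv10-3 stood at 0.451, 1.19 and 2.05 CPM in GRWT water and 0.425, 0.144 and 0.255 in GRDim water, with a log2 fold change of -2.11 ± 0.61 (edgeR adjusted p = 0.0134, and at most 0.0893 when GRDim water IEC 5 or GRWT water ileum 1 was left out). These levels correspond to few reads. On zinc it stood at 0.775, 0.749 and 0.211 CPM in GRWT and 0.0752, 0.280 and 0.282 CPM in GRDim mice (-1.40, edgeR adjusted p = 0.200). The 5 J members lay at or below 1.28 CPM in every library, and of the 2 tested none was called on either water.

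The share of a V gene among all V counts of its class does not depend on the summed level of the class, and was read library by library with no test. In 2 of 87 heavy and 1 of 93 kappa V members the share was higher in all 6 GRDim than in all 6 GRWT libraries. The levels of 9.56% of all genes did so, which is a background for levels and not for shares. Ighv1-54 took 1.54%, 0.709% and 0.857% of heavy V counts in GRWT water, 0.832%, 1.43% and 0.922% in GRWT zinc, 6.37%, 5.04% and 4.12% in GRDim water and 6.95%, 3.48% and 4.66% in GRDim zinc, a mean of 1.05% against 5.10%. Ighv1-80 took a mean of 1.56% against 2.80%, with levels of 6.55 to 11.8 CPM in GRWT and 26.1 to 55.7 CPM in GRDim libraries (log2 fold change 2.12 ± 0.29 on water, edgeR adjusted p = 0.000488). Igkv9-123 took 0.0310% against 0.151% of kappa V counts.

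In 3 of 87 heavy V members the share was lower in all 6 GRDim libraries. The 8.59% of all genes whose levels were lower there is again a background for levels only. Ighv1-69 took 1.91%, 2.32% and 2.49% in GRWT water, 1.83%, 3.37% and 2.17% in GRWT zinc, 1.18%, 0.500% and 0.875% in GRDim water and 0.987%, 1.13% and 0.589% in GRDim zinc. Its level was 9.24 to 14.8 CPM in GRWT and 6.35 to 17.9 CPM in GRDim libraries, ranges that overlap. Ighv1-74 had a mean share of 1.58% in GRWT and 0.920% in GRDim libraries, and Ighv10-3 one of 0.174% and 0.0174%. By family, Igkv1 took 12.8% to 15.3% of kappa V counts in GRWT and 15.6% to 21.2% in GRDim libraries, and Ighv1, the largest heavy family with 43 members, took 40.8% to 49.6% and 45.1% to 57.1%. Of 41 tested Ighv1 members, 24 were called higher on water and 20 on zinc, against 5.02% and 2.43% of all genes.

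**Figure D5:**
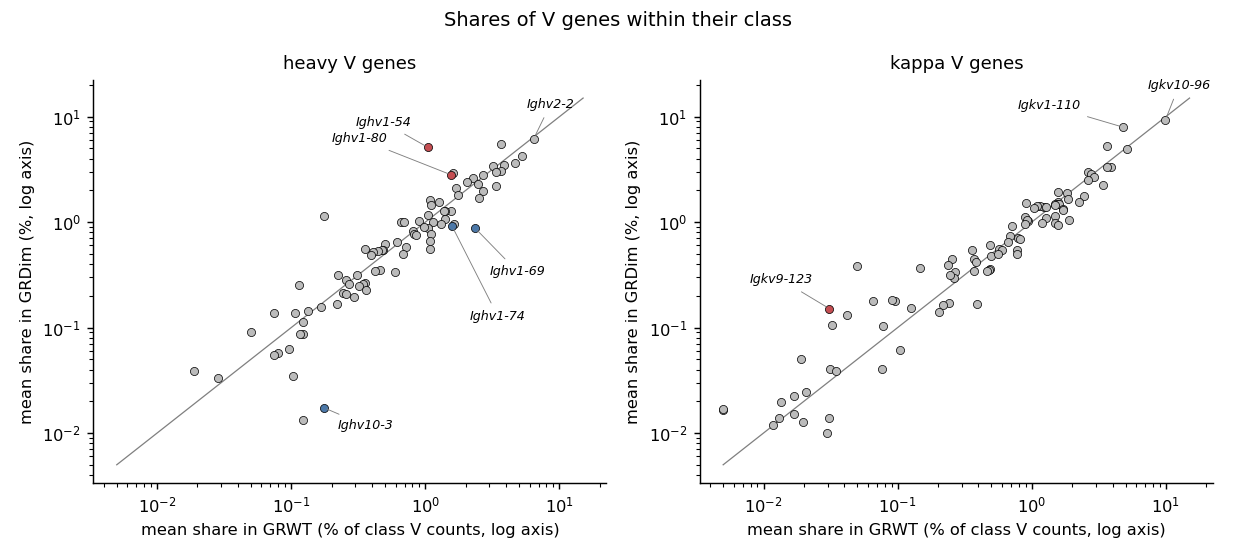
Mean share of each V gene among the V counts of its class in the 6 GRWT (horizontal) and 6 GRDim (vertical) Myh11-high libraries, log axes; the grey line is equality, red marks genes whose share was higher in all 6 GRDim libraries and blue those whose share was lower. Ighv1-54 lies at 1.05% and 5.10%, and Ighv10-3 at 0.174% and 0.0174%; means under 0.005% are drawn at 0.005%.

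The spread over V genes was read from the inverse Simpson index, which gives the number of equally used V genes that would give the same concentration of counts. Heavy V values were 33.2, 34.9 and 35.7 in GRWT water, 39.1, 40.9 and 38.9 in GRWT zinc, 33.2, 35.1 and 35.0 in GRDim water and 37.5, 38.0 and 36.1 in GRDim zinc. Zinc libraries lay above water libraries of the same genotype without overlap, by 5.05 (SD within conditions 1.19) in GRWT and 2.72 (SD 1.02) in GRDim mice, and the genotypes overlapped on water and not on zinc, where GRDim libraries lay lower. In GRDim mice these water libraries were all labelled IEC and the zinc ones ileum, so zinc and the tissue label cannot be told apart. In the Myh11-low libraries, which hold few V counts, the differences with zinc were negative in both genotypes, as given at the end. The share of Ighv2-2, the heavy V gene with the highest mean level over the 12 libraries, was 9.82%, 7.13% and 6.77% in GRWT water and 5.08%, 4.78% and 5.04% in GRWT zinc. In GRDim mice its share was 6.71% and 7.48% in water IEC 5 and 6, and 6.90% and 6.47% in zinc ileum 2 and 3. Another heavy V gene led in GRDim water IEC 4 and GRDim zinc ileum 1. Kappa values were 29.0, 31.6 and 30.6 in GRWT water, 32.8, 31.6 and 34.9 in GRWT zinc, 26.1, 33.3 and 29.2 in GRDim water and 31.1, 31.4 and 29.6 in GRDim zinc. Here water and zinc libraries overlapped in each genotype, and GRDim libraries again lay below GRWT libraries on zinc only. Between 84 and 87 heavy and 88 and 93 kappa V members had reads in a library.

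Zinc itself moved few members. These comparisons share their groups with the genotype comparisons, so their values are given side by side and not compared. In GRWT mice 0 members were called higher and 0 lower, against 0.107% and 0.0564% of all genes, and at an unadjusted p under 0.05 the counts were 5 and 13 (6.06% and 5.45% of all genes). DESeq2 called 0 in either direction (0.161% and 0.119%). In GRDim mice 1 was higher and 0 lower, against 0.771% and 0.558%, with 3 and 12 at an unadjusted p under 0.05 (11.5% and 11.2%) and 1 and 1 by DESeq2 (0.934% and 0.511%). The Igha log2 fold change with zinc was -0.14 ± 0.18 (edgeR adjusted p = 0.801) in GRWT and -0.25 ± 0.18 (edgeR adjusted p = 0.466) in GRDim mice. The test of whether zinc acted differently in the genotypes called 0 members in either direction, against 0.226% and 0.0376% of genes, with 3 and 4 at an unadjusted p under 0.05 (7.71% and 7.79%) and 0 by DESeq2 (1.55% and 0.583%). Over both genotypes zinc moved 0 members higher and 0 lower, against 0.426% and 0.157% of genes, with 2 and 15 at an unadjusted p under 0.05 (10.8% and 9.05%) and 0 and 1 by DESeq2 (0.437% and 0.193%).

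The member called with zinc in GRDim mice was Igkv4-55. It stood at 11.3, 17.2 and 10.6 CPM in GRDim water and 24.8, 22.4 and 33.9 CPM in GRDim zinc, a log2 fold change of 1.05 ± 0.25 (edgeR adjusted p = 0.0322), and at 3.33 to 6.98 CPM in GRWT libraries. The call was lost without GRDim water IEC 4 or 6, any GRDim zinc library or GRWT zinc IEC 4 (at most 0.118). Counting libraries, 3 of 200 members were higher and 13 lower in every zinc library of GRWT mice (7.82% and 7.04% of genes), and 6 were higher and 14 lower in GRDim mice (14.4% and 17.6%). These counts lie close to or below the background.

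Genes of plasma cells other than immunoglobulins were read from a list of 20. On water 10 were called higher and 0 lower in GRDim mice, against 5.02% and 5.47% of all genes, with a median log2 fold change of 1.27. On zinc 6 and 0 were called, against 2.43% and 1.97%, with a median of 0.57. Without the library labelled GRWT zinc ileum replicate 1 the counts were 12 and 0 on water (5.74% and 5.58%) and 10 and 0 on zinc (3.47% and 1.75%), with a median of 0.97 on zinc. Jchain stood at 1842, 1444 and 1445 CPM in GRWT water, 1559, 1115 and 1733 in GRWT zinc, 4429, 3910.2 and 4887 in GRDim water and 3623, 3527 and 4452 in GRDim zinc. Jchain rose by a log2 fold change of 1.48 ± 0.17 on water (edgeR adjusted p = 5.6e-05) and 1.40 ± 0.17 on zinc (edgeR adjusted p = 0.000297), next to 1.50 and 1.39 for Igha. Jchain counts per 100 Igha counts were 38.6 to 43.3 in GRWT and 39.0 to 46.4 in GRDim libraries, so the ratio of J chain to IgA transcripts overlapped between genotypes.

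Mzb1, a chaperone of antibody assembly, stood at 17.5, 13.6 and 14.8 CPM in GRWT water, 13.4, 10.4 and 29.2 in GRWT zinc, 53.4, 45.9 and 54.1 in GRDim water and 33.1, 36.9 and 46.6 in GRDim zinc. Mzb1 rose by a log2 fold change of 1.74 ± 0.33 on water (edgeR adjusted p = 0.00358) and 1.14 ± 0.33 on zinc (edgeR adjusted p = 0.0463, kept without the library labelled GRWT zinc ileum replicate 1 and lost without any other, at most 0.139). Called on both waters were also Derl3, of the endoplasmic reticulum's degradation machinery (1.28 and 1.07), Tnfrsf17, the survival receptor BCMA (1.27 and 1.30), Prdm1, the plasma cell transcription factor Blimp-1 (0.87 and 0.98), and Eaf2 (1.59 and 1.26). Prdm1 was lost on water without GRWT water ileum 1 (0.70) and Eaf2 on zinc without GRWT zinc IEC 4 (edgeR adjusted p = 0.0514). Irf4 (1.48), Tnfrsf13b (1.62), the homing receptor Ccr10 (1.44) and Cd38 (1.36) were called on water. Without the library labelled GRWT zinc ileum replicate 1, Irf4 (1.67), Tnfrsf13b (1.31) and Ccr10 (1.17) were called on zinc too, and the coactivator Pou2af1 on both waters (1.52 and 1.40). Not called on either water were Xbp1 (0.06 on water), Sdc1 (-0.12), Ell2 (-0.06), Txndc5 (0.19), Fkbp11 (0.22), Creld2 (0.29), Sec11c (0.50) and Tent5c (0.73). Cd27 (1.27 on water) was called there without the library labelled GRWT zinc ileum replicate 1 and not with it.

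A second list held 18 genes of IgA induction, homing and transport, of which 14 were tested. On water 8 were higher and 1 lower in GRDim mice, against 5.02% and 5.47% of all genes, and on zinc 6 and 1, against 2.43% and 1.97%. Without the library labelled GRWT zinc ileum replicate 1 the counts were 9 and 1 on water (5.74% and 5.58%) and 8 and 1 on zinc (3.47% and 1.75%). Pigr, the epithelial carrier of IgA, stood at 2588, 2688 and 2433 CPM in GRWT water, 2136, 2465 and 2004 in GRWT zinc, 6496, 6445 and 6295 in GRDim water and 6372, 6565 and 6031 in GRDim zinc. The log2 fold change was 1.32 ± 0.08 on water (edgeR adjusted p = 3.1e-08) and 1.52 ± 0.08 on zinc (edgeR adjusted p = 2.96e-08). In the Myh11-low libraries Pigr stood at 5479.7 to 8692 CPM in GRWT and 6975 to 9527 CPM in GRDim mice, and the log2 fold change was -0.05 on water and 0.44 on zinc (edgeR adjusted p = 0.997 and 0.252), or 0.05 and 0.79 with counts scaled by library totals. Called on both waters were also the plasma cell survival factors Tnfsf13 (APRIL; 1.25 and 0.91) and Tnfsf13b (BAFF; 1.85 and 1.31), the mucosal chemokine Ccl28 (1.08 and 1.00), the gut homing receptor Ccr9 (1.53 and 1.12) and Nos2 (2.29 and 2.35). Tnfsf13 was lost on zinc without GRWT zinc IEC 4 (0.75).

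The 2 subunits of the gut homing integrin were called on water, Itgb7 at 1.93 and Itga4 at 1.11 (edgeR adjusted p = 0.0225, lost without GRDim water IEC 5 or 6, GRWT water IEC 5 or GRWT water ileum 1, at most 0.0774). Without the library labelled GRWT zinc ileum replicate 1 both were also called on zinc, at 1.48 and 1.04. Il5ra, a receptor chain for interleukin 5, ran the other way. It stood at 12.4, 12.6 and 16.5 CPM in GRWT water, 10.9, 8.76 and 11.8 in GRWT zinc, 0.638, 0.289 and 1.28 in GRDim water and 4.43, 5.81 and 2.89 in GRDim zinc, so that no GRDim library reached the lowest GRWT one. Its log2 fold change was -4.19 ± 0.36 on water (edgeR adjusted p = 5.4e-06) and -1.26 ± 0.29 on zinc (edgeR adjusted p = 0.0112). Cd38 fell with zinc in GRDim mice by 1.01 on the log2 scale (edgeR adjusted p = 0.00018).

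Markers of other cells moved with genotype too. Of 10 T cell markers, 10 were higher in GRDim mice on water and 7 on zinc (10 and 10 without the library labelled GRWT zinc ileum replicate 1), against 5.02% and 2.43% of all genes. Their summed level was 76.7 to 125 CPM in GRWT libraries, 473 to 552 in GRDim water and 271 to 278 in GRDim zinc. Of 13 B cell markers tested from 16, 0 were called in either genotype comparison by edgeR, with 0 at an unadjusted p under 0.05 on water and 3, all lower, on zinc, and 0 by DESeq2. Without the library labelled GRWT zinc ileum replicate 1, 7 were called higher in GRDim mice on water and 5 on zinc. For these and the other marker lists, the shares of all genes called in that fit are those given for the plasma cell list. Their summed level was 23.1 to 31.2 CPM in GRWT libraries other than the one at 445 CPM, and 39.7 to 64.7 CPM in GRDim libraries. Of 10 germinal centre and class switching genes, 8 were tested and 0 called in either comparison, and of 6 stromal and follicular dendritic cell genes 3 were tested and 0 called. DESeq2 called 1 germinal centre gene lower on zinc and 1 stromal gene higher on water. Without that library 2 genes of either list were called higher on water and 0 on zinc. Of 10 epithelial genes 1, Fabp2, was lower on water and 0 were called on zinc. Smooth muscle markers (10) and fibroblast markers (6) had 0 calls in both comparisons, by edgeR and by DESeq2. At an unadjusted p under 0.05 in edgeR, 7 smooth muscle markers were lower on water and 3 on zinc (23.3% and 16.9% of all genes), and 0 fibroblast markers differed on either. The summed smooth muscle level was 1811 to 2022 CPM in GRWT water and 1363 to 1568 in GRDim water, with no overlap, and 1301 to 1759 CPM in GRWT zinc and 1154 to 1529 in GRDim zinc, which overlap. The summed fibroblast level was 645 to 1055 CPM over the 12 libraries. Of 10 macrophage and dendritic cell markers, 1 rose on water and 0 on zinc (1 and 2 without the library labelled GRWT zinc ileum replicate 1), with 7 higher on water and 1 on zinc at an unadjusted p under 0.05 (23.8% and 15.2% of all genes). Their summed level was 161 to 216 CPM in GRWT water and 264 to 284 in GRDim water, with no overlap, and 174 to 219.8 CPM in GRWT zinc and 197 to 253 in GRDim zinc. The part of these cells in the immunoglobulin differences was not tested.

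The 10 Myh11-low libraries held little immunoglobulin RNA. The members took 0.00567% to 0.0142% of counts in their 4 GRWT and 0.00652% to 0.0312% in their 6 GRDim libraries. Only 20 members passed the count filter there and 0 were called by edgeR in either genotype comparison (0.0288% of all genes higher and 0% lower on water, 0.0431% and 0.0144% on zinc). At an unadjusted p under 0.05, 10 were higher and 0 lower on water (2.45% and 3.18%) and 1 higher and 1 lower on zinc (6.93% and 16.0%). Their summed heavy level was 54.2 and 56.6 CPM in GRWT water, 32.5 and 129 in GRWT zinc, 95.997 to 162 in GRDim water and 36.1 to 111 in GRDim zinc. The 129 CPM came from GRWT zinc ileum replicate 3, whose TMM factor was 0.687 against 0.997 to 1.08 in the other 9 libraries, and on library totals it was 88.4 CPM, below the highest GRDim zinc library at 116 CPM. The genotypes did not overlap on water and did on zinc under either scaling, and Igha took 81.2% to 94.9% of heavy constant counts in these GRWT and 86.7% to 91.1% in these GRDim libraries. On zinc the direction for Igha, Igkc and the heavy and kappa sums there depended on this scaling. With TMM the log2 fold changes were -0.44 for Igha, -0.42 for Igkc and -0.56 for Jchain (edgeR adjusted p = 0.660, 0.622 and 0.430), and with library totals, an alternative added after seeing the data, 0.05, 0.04 and -0.12 (edgeR adjusted p = 0.954, 0.951 and 0.824). The heavy and kappa sums likewise differed by -0.19 and -0.16 on the log2 scale with TMM and by 0.14 and 0.18 on library totals.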

How the data were processed

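Counts per gene in 22 libraries (54838 genes) were used as deposited. Per the study's methods and processing notes, the authors trimmed single-end TruSeq stranded reads (Trimmomatic), aligned them to mm10 with HISAT2 2.0.4 and made the count table with featureCounts, leaving out reads that mapped to several places. The annotation release and strand setting are not given in the sources used here. For GRDim water ileum, 2 columns had the same header and were used without a replicate number. Gene types, coordinates and sequences came from GENCODE vM21 (54809 names matched).

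Libraries with Myh11 over 100 CPM were kept (12 of 22) and fitted together, without covariates, with edgeR 4.0.16 (R 4.3.3): TMM, the default expression filter on the 4 conditions, quasi-likelihood F tests and Benjamini-Hochberg adjustment over 15947 genes, with calls at adjusted p under 0.05 and a log2 fold change beyond 0.8 (interaction: adjusted p alone). On simulated counts for the genotype comparison on water (15856 genes), 83% of genes changed by 1 and 100% of those changed by 2 on the log2 scale were called. The simulation gave every gene the same spread, changed only genes with enough reads and held no outlying library. These rates therefore need not hold for the immunoglobulin genes. Class sums, shares and V gene spread were described without tests. Named were all constant genes, the 5 most abundant V genes per class, up to 5 called members per direction and comparison with the largest fold change and a mean of at least 1 CPM, called genes of the plasma cell and IgA lists, and members at the count minimum. The members and lists were chosen with earlier results of these data known. Alternatives were DESeq2 1.42.0, its size factors, TMM without immunoglobulin genes, weaker and stricter filters, a tissue covariate, all 22 libraries, the Myh11-low libraries (by TMM and by library totals), a replicate block and leaving out each library. The totals of the 12 libraries (13415583 to 15620744 counts) put the floor of 3 counts at 0.192 to 0.224 CPM, which covers counting error only. Of the members, 2 overlap exons of another gene.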

Additional observations from a re-analysis of the deposited data

Results flagged for a closer look

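In 46 groups of 6 libraries, the gap of the highest or lowest library to its neighbour was compared with the range. A group held the 6 GRWT or the 6 GRDim Myh11-high libraries for a constant gene or a class quantity. For 6 values from 1 normal distribution, chance marks about 1 in 20 groups, and 10 were marked. The groups pool both waters and share libraries, so that rate need not hold for them. Of the 10 marked, 9 concerned the library labelled GRWT zinc ileum replicate 1. Its level was 71.3 CPM for Ighd (0.129 to 1.13 CPM in the other 5 GRWT libraries), 27.1 CPM for Ighg3 (0.141 to 1.10), 176 CPM for Ighm (9.25 to 15.4) and 72.9 CPM for Ighg2b (6.82 to 14.3). It was 11.1 CPM for Ighg1 (0.904 to 3.48), 7.68 CPM for Ighg2c (0.899 to 3.03), 11.3 CPM for Iglc3 (2.39 to 5.04) and 0.775 CPM for Ighe (0.129 to 0.370). Its Igha share of heavy constant counts was 91.7% (99.2% to 99.4% in the others). The same library had the high B cell marker levels given above, and the part of those cells in these values was not tested. The remaining one was Ighg3 in GRDim water IEC replicate 5, at 2.31 CPM (0.846 to 1.28 CPM in the other GRDim libraries).

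The change of Il5ra with zinc differed between genotypes by 2.93 ± 0.48 on the log2 scale (edgeR's interaction term, adjusted p = 0.0350), with a rise of 2.53 in GRDim mice (edgeR adjusted p = 0.00336). Il5ra was higher in 3 of 3 GRDim zinc than in any GRDim water library. The call was lost in 8 of 12 fits with 1 library left out (adjusted p 0.00343 to 0.111). The edgeR adjusted p was 0.0701 with the tissue label as covariate, 0.575 and 0.998 in all libraries with the Myh11 split or the tissue label, 0.749 in the Myh11-low libraries (0.830 on library totals), and 0.00259 with and 0.266 without the replicate block. The log2 difference in these fits lay between 2.26 (Myh11-low libraries) and 3.55 (replicate block).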

How the results depend on the processing

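Under other normalizations, the weaker filter and DESeq2, the counts of members called between genotypes stayed within 1.5 times those given above or at the same 0 or 1, while the choice of libraries changed them. For 106 values of named genes the alternatives gave 2442 values, of which 2012 kept direction and side of the threshold, 361 lost the call, 40 gained it and 29 changed sign. With the tissue label as covariate in all 22 libraries the members called higher were 0 on water, 0 on zinc and 0 over both waters, and in the Myh11-low libraries, where 20 members were tested, they were also 0, 0 and 0. On zinc they were 43 with the tissue label as covariate in the 12 libraries, with 1 lower. The tissue label does not follow the Myh11 split, so its fit over all 22 libraries mixes Myh11-high and Myh11-low ones. That fit cannot decide whether the genotypes differ. The 1 lower member on water was 0 under the stricter filter, the Myh11 split or tissue label over all libraries, the Myh11-low libraries and both fits of numbered libraries, and over both waters 0 under the same settings except the fit without block. For zinc in GRDim mice the higher count was 0 under the weaker filter, the tissue covariate, either fit of all libraries, the Myh11-low libraries and the fit without block. The lower count there was 1 under DESeq2, the tissue covariate and the Myh11 split, and that over both genotypes 1 under DESeq2 and the tissue covariate. Same-numbered libraries had deviations correlated between -0.24 and 0.314 (25 pairs), so numbers do not pair samples; with a replicate block the counts were 70 on water (3.47% of all genes) and 17 on zinc (0.595%), against 89 (3.21%) and 75 (1.37%) without the block, a fit added after seeing the data, and with the block they were 0 lower on water and over both waters, 1 for the interaction, 3 lower with zinc in GRDim and 2 lower for zinc over both genotypes. Leaving out 1 library gave 55 to 88 higher and 0 to 1 lower on water, 39 to 72 and 0 to 1 on zinc, 104 to 124 and 1 over both waters, 0 to 1 and 0 to 1 for zinc in GRDim, 0 and 0 to 1 for zinc in GRWT, 0 to 1 and 0 to 2 for zinc over both genotypes, and 0 for the interaction. In the Myh11-low libraries the heavy, kappa and lambda log2 differences were 1.26, 1.20 and 0.93 for genotype on water, -0.19, -0.16 and 0.27 on zinc, and -1.23, -1.44 and -1.57 for zinc in GRDim, with 0.22 (heavy) and -0.91 (lambda) for zinc in GRWT. On library totals, added after seeing the data, no member was called there either, and those differences were 1.36, 1.30 and 1.03, then 0.14, 0.18 and 0.60, then -1.25, -1.46 and -1.59, with -0.034 (heavy) and -1.17 (lambda). The TMM factor of GRWT zinc ileum 3 was 0.687. The Igha share differed by 2.50, -3.06, 1.01 and 6.57 points in that order, heavy V spread by 9.60, 1.49, -8.13 and -0.025, and kappa V spread by 3.38, 6.63, -4.07 and -7.32. These libraries hold 36 to 206 heavy and 85 to 557 kappa V counts, and thinned to 36 and 85 counts (added after seeing the data) the differences were 2.15, 1.02, -1.25 and -0.12 for heavy and 0.26, 5.06, -0.84 and -5.64 for kappa V spread. Per kilobase the Igha share on water differed by -1.95 points. Signs changed in the Myh11-low libraries on zinc for Igha (-0.44), Igkc (-0.42), Jchain (-0.56), Ighg2b (1.26), Il5ra (0.12), Prdm1 (-0.10) and Tnfsf13 (-0.039), and on water for Pigr (-0.054) and Derl3 (-0.059); on library totals there Jchain (-0.12), Ighg2b (1.50) and Il5ra (0.31) on zinc changed sign. On zinc they also changed without GRWT zinc ileum 1 for Ighd (0.73), Ighg2b (1.61) and Ighg3 (1.66), with the block for Ighg2b (0.064) and Iglv3 (-0.22), with the tissue covariate for Ighm (-0.10) and Iglv3 (-0.050), and without GRDim zinc 3 for Iglv3 (-0.10). Leaving out 1 library gave ranges on zinc of -5.34 to 0.73 for Ighd, -0.81 to 1.61 for Ighg2b, -3.76 to 1.66 for Ighg3 and -0.10 to 1.79 for Iglv3, and -0.25 to 0.012 for the zinc effect on Igha in GRWT. The zinc effect on Igha in GRWT was 0.25 with the Myh11 split, 0.024 with the tissue label over all libraries, 0.70 in Myh11-low libraries (0.29 on library totals), 0.039 with and 0.24 without the block, 0.012 without GRWT water IEC 4 and 0.0038 without GRWT zinc IEC 5, and in GRDim 1.20 with the tissue label over all libraries. The cause of these changes was not tested.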
